A study of Mus musculus with 4 samples.

Results

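Narrow peaks of H3K36me3 lying near the distal ends of the mouse autosomes were examined in germ cells of 2 strains that differ in the zinc finger array of PRDM9. A peak was included when its midpoint fell within the last 5 Mb of chromosome 1 to 19, measured from the end of the mm9 chromosome. The choice used position only, and it took 2369 narrow peaks of 58502 in B6 and 2885 of 72692 in KI, 5254 of 131194 in all. On the autosomes outside these windows 51867 peaks remained in B6 and 65304 in KI, and they served as the comparison. The B6 peaks nearest the 5 Mb limit lay 1408.5 bp inside it, on chromosome 10, and 3422.5 bp outside it, on chromosome 11. In KI the nearest were 1467.5 bp inside and 4293.5 bp outside, both on chromosome 11.

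H3K36me3 was profiled by chromatin immunoprecipitation and sequencing in cells that the labels call spermatocytes, taken 14 days after birth. The B6 mice were C57BL/6J. The KI mice were B6.Cg-Prdm9<tm1.1Kpgn>/Kpgn, in which the last exon of Prdm9, coding for the zinc fingers that bind DNA, was exchanged for that of the Prdm9 Cst allele of CAST/EiJ on an otherwise B6 background. The input chromatin of each strain, labelled 15 days, was used when the peaks were called. The labels name the antibody target as H3K36me6 in one field and as H3K36me3 in the titles.

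For each strain the biological replicates had been merged before calling, so 1 pooled list of narrow peaks and 1 pooled list of broad regions was compared per strain. A narrow peak is the refined summit interval that the caller placed inside a broad region. The lists hold positions only, without read counts, and the depth behind each peak is unknown. The authors report more aligned H3K36me3 reads for KI than for B6, and the part of depth in differences between the lists was not tested. Intervals given here are 95% intervals that cover only the number of peaks, neighbouring peaks often lie in the same gene and are not independent, and no difference could be set against the spread between animals. Across 12 genes of meiotic germ cells, broad regions covered at least 82.4% of each gene in B6 and 77.4% in KI. The 6 Sertoli cell markers had a median coverage of 30.8% in B6 and 0.167% in KI, and 1 of them in B6 and 0 in KI were covered to at least 50%. Wt1 was covered to 71.7% and 8.49%, Sox9 to 45.2% and 0%, and Amh to 42.0% and 0.333%, whereas Dhh was at 0% in both strains. The 4 peritubular and vessel markers had a median of 1.56% in B6 and 4.15% in KI. Among them Myh11 was covered to 15.9% and 9.17%, Pecam1 to 3.11% and 3.63%, Cdh5 to 0% and 4.66%, and Acta2 to 0% in both. Markers of blood reached at most 2.22% in B6 and 2.67% in KI. Of 5 Leydig cell markers Star was covered to 100% in both strains and no other above 1.51%. Among 4 late spermatid markers Prm2 was at 0% in B6 and 100% in KI, the others at 0%. Of 5 liver and brain markers, Cyp2e1 was covered to 56.7% and 74.5% and Apoa2 to 76.2% and 0%, and the others were at 0%.

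H3K36me3 has more than one source in these cells. SETD2 travels with elongating RNA polymerase II and places the mark along the bodies of transcribed genes. PRDM9 is a meiotic methyltransferase that binds specific DNA sequences through its zinc fingers and trimethylates H3K4 and H3K36 on nearby nucleosomes, where recombination is then initiated. Mouse autosomes are acrocentric, with the centromere at the start of the sequence, so the distal end is the one that carries the telomere farthest from the centromere. In male mice crossovers are known to be frequent toward these distal ends.

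The sequences at the middle of 5 peaks close to chromosome ends show what kinds of positions the lists hold. When these peaks were chosen, 1 autosome, named with the processing below, was left out. In this paragraph, nearest an end and most distal therefore refer to the other autosomes. Each is the forward strand of mm9 over 200 bases, and capitals mark a word of 10 bases found mainly in peaks of that strain, as described further on. The first is the B6 peak nearest an end that lay outside protein-coding genes, met no region of KI and held such a word; it was on chromosome 16, 65.9 kb from the end and 21.6 kb from B230307C23Rik.
B6 chr16:98252934-98253133: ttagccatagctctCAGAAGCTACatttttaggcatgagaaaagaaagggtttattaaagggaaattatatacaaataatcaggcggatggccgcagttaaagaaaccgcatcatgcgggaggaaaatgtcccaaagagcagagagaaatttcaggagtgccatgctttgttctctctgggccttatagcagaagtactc
The matching KI peak was on chromosome 6, 376.3 kb from the end and 3.296 kb from Amn1, and it holds overlapping words.
KI chr6:149140539-149140738: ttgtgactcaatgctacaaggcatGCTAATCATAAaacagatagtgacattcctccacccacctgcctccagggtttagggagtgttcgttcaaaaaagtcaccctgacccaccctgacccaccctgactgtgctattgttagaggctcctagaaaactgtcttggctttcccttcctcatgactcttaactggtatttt
The most distal peaks outside genes that met no region of the other strain, whatever their words, were a B6 peak on chromosome 9, 7.862 kb from the end, and a KI peak on chromosome 10, 27.4 kb from the end.
B6 chr9:124068085-124068284: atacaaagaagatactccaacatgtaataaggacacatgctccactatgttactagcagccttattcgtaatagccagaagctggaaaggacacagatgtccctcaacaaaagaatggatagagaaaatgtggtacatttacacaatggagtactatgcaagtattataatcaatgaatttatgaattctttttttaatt
KI chr10:129965029-129965228: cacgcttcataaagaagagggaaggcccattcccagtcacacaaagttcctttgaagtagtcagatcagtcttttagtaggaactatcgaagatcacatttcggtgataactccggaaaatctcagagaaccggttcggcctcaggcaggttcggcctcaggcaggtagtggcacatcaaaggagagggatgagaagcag
The shared peak nearest an end was on chromosome 9, 4.524 kb from the end in B6 and 4.804 kb in KI.
B6 chr9:124071101-124071300: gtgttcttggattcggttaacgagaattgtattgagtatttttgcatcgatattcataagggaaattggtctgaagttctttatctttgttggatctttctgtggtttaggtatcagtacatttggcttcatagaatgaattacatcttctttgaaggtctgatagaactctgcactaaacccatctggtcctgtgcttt
The middle 30 bases of this B6 sequence occurred at 7794 positions of the autosomes, counted on both strands. The middle 30 bases of the overlapping KI peak, at a slightly different position, occurred 1 time. The middle 30 bases of the other 4 sequences occurred 1 time each. Only exact matches were counted, so a count of 1 does not show that a sequence lies outside repeats.

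Over all distal windows together, narrow peaks were slightly denser than on the rest of the chromosomes in both strains. In B6 there were 25.1 peaks per Mb of known sequence (95% exact Poisson interval 24.1 to 26.1) against 22.6 in the rest, a ratio of 1.11 (1.07 to 1.16). In KI there were 30.5 peaks per Mb (29.4 to 31.7) against 28.4, a ratio of 1.07 (1.04 to 1.12). The excess was small beside the difference between chromosomes, and its direction depended on whether genes were counted. Protein-coding genes filled 45.0% of the distal windows and 39.3% of the rest. Per Mb of gene, B6 had 42.9 peaks in the distal windows and 43.8 in the rest, and KI had 49.7 and 52.9. Outside genes the order was the other way round, with 10.5 peaks per Mb against 8.83 in B6 and 14.9 against 12.5 in KI. Thus the distal windows of KI had fewer peaks per Mb of gene, with a ratio of 0.938 (0.898 to 0.980). In B6 that ratio was 0.979 (0.934 to 1.03), an interval that includes no difference. Outside genes the distal windows had more peaks per Mb, with a ratio of 1.19 in each strain (1.09 to 1.30 in B6, 1.11 to 1.28 in KI).

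The 19 chromosome ends differed far more from each other than the pooled windows differed from the rest. In B6 the distal density ran from 5.80 peaks per Mb on chromosome 18 to 44.9 on chromosome 9, with a median of 26.4. In KI it ran from 7.6 on chromosome 18 to 53.2 on chromosome 11, with a median of 32.7. The rest of the chromosomes, averaged over far longer stretches, ranged from 17.6 (chromosome 3) to 28.3 (chromosome 11) in B6. KI had 21.9 and 36.3 on the same 2 chromosomes. The distal window was denser than the rest on 12 chromosomes and sparser on 7 in B6, and on 10 and 9 in KI. On 9 chromosomes both strains were higher and on 6 both were lower.

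**Figure D1:**
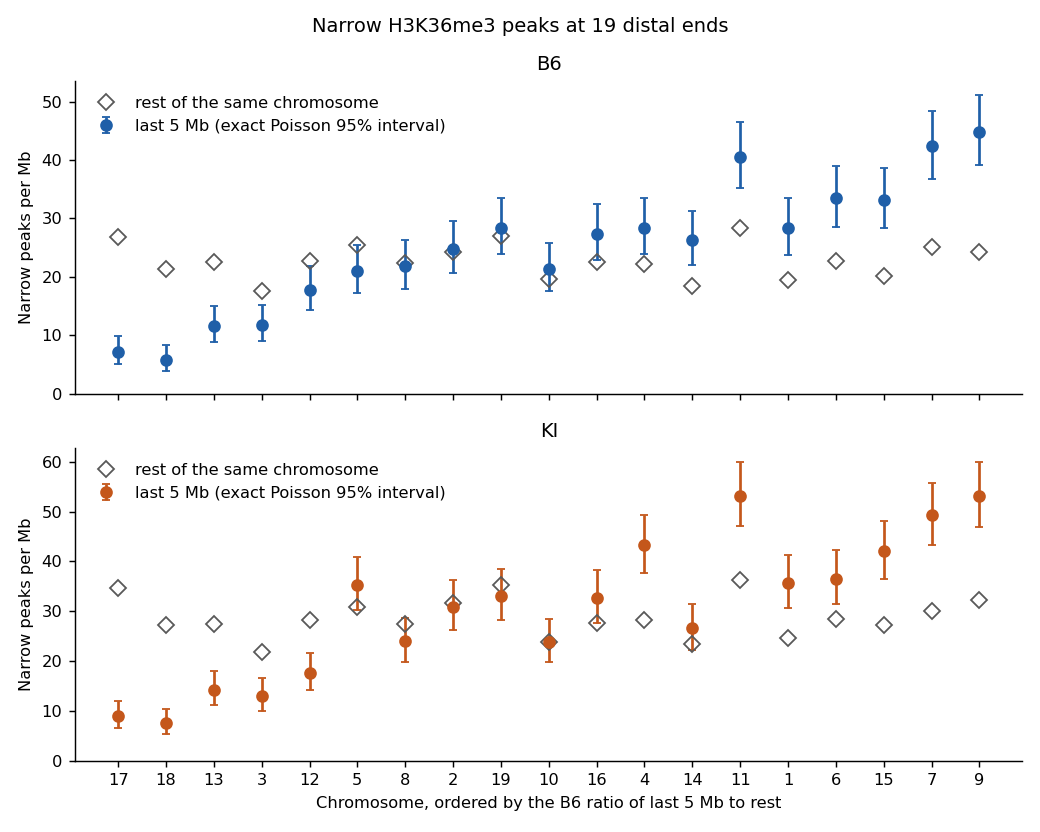
Narrow peaks per Mb of known sequence (vertical axes) in the last 5 Mb of each autosome (filled circles, with exact Poisson 95% intervals) and in the rest of the same chromosome (open diamonds), B6 above and KI below, with chromosomes ordered by the B6 ratio. Chromosomes 17, 18, 13, 3 and 12 lie below their own rest in both strains, and chromosomes 11, 1, 6, 15, 7 and 9 lie above it in both.

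The poorest ends were those of chromosomes 17 and 18. The last 5 Mb of chromosome 17 held 36 B6 peaks and 45 KI peaks, which is 7.20 and 9.0 per Mb against 26.9 and 34.7 in the rest of that chromosome. The ratio was 0.268 (0.193 to 0.371) in B6 and 0.260 (0.194 to 0.348) in KI. The window ranked last of the 18 windows of 5 Mb on chromosome 17 in each strain. Chromosome 18 held 29 B6 and 38 KI peaks in its last 5 Mb, with ratios of 0.271 (0.188 to 0.391) and 0.279 (0.203 to 0.384). Chromosome 13 followed, with 58 and 71 peaks and ratios of 0.515 and 0.517. These 3 windows were also the poorest in genes, which filled 21.8% of the window on chromosome 17, 22.2% on chromosome 18 and 23.5% on chromosome 13. Chromosome 3 (ratios 0.671 and 0.595) and chromosome 12 (0.783 and 0.623) were low as well, with 37.2% and 40.6% of bases in genes.

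Among the richest ends were those of chromosomes 9, 7, 15 and 11. Chromosome 9 held 222 B6 peaks and 263 KI peaks in its last 5 Mb, with ratios of 1.85 (1.61 to 2.12) and 1.65 (1.45 to 1.87). That window was the densest of 24 on the chromosome in B6 and ranked 3 in KI. On chromosome 7, with 210 and 244 peaks, the ratios were 1.69 and 1.64. On chromosome 15 they were 1.65 and 1.54, and on chromosome 11, whose remainder was also the densest, 1.43 and 1.47. Genes filled between 51.1% (chromosome 15) and 62.8% (chromosome 11) of these 4 windows. Chromosome 14 stood apart from them: genes filled 64.4% of its window, the highest share of the 19, yet its density was 26.4 in B6 and 26.6 in KI, with ratios of 1.42 and 1.14. The density of the ends was alike in the strains across the 19 chromosomes (Pearson r 0.961, Spearman coefficient 0.944), and it followed the gene share of the window (Spearman coefficient 0.768 in B6 and 0.758 in KI). These coefficients describe 19 windows that share the genome sequence and, within a strain, the same libraries.

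Set among all windows of 5 Mb counted from the distal ends, the most distal ones spread over much of the common range. The 462 other windows had a median of 21.3 B6 peaks per Mb, with quartiles of 13.8 and 30.9, and 13 of the 19 distal windows lay above that median. In KI the median was 26.7, with quartiles of 17 and 38.4, and 11 of the 19 lay above it. The upper quartile of the other windows was exceeded by 5 distal windows in each strain. The SD between windows was 11.2 among the distal and 11.6 among the other windows in B6, and 14.1 and 14.8 in KI. Over all 481 windows the density followed the gene share (Spearman coefficient 0.677 in B6, 0.680 in KI) and the GC content (0.703 and 0.773), as a description of windows that share libraries. The median distal window was 48.0% genic and the median other window 40.6%.

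**Figure D2:**
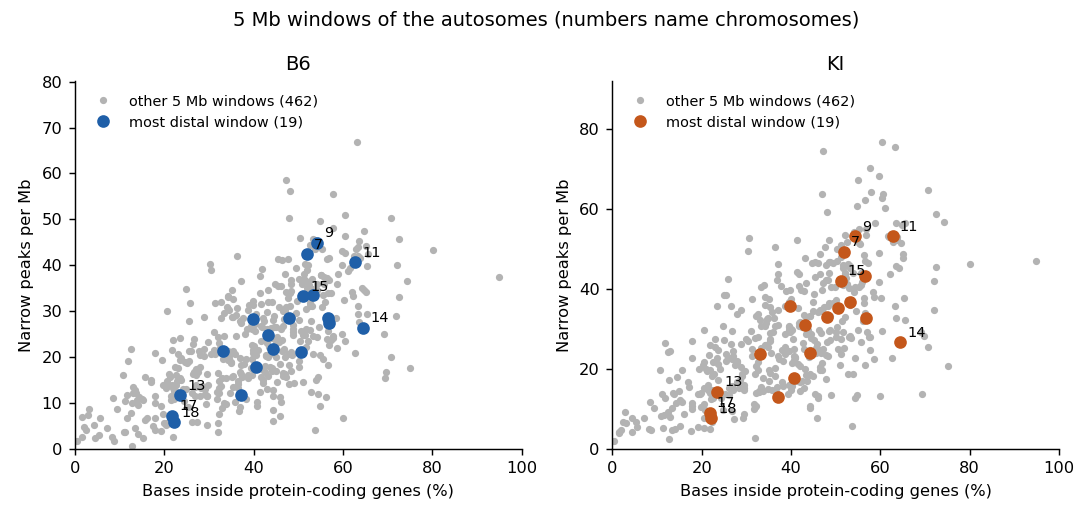
Narrow peaks per Mb against the percentage of bases inside protein-coding genes for 481 autosomal windows of 5 Mb, B6 on the left and KI on the right; each point is a window, and the 19 most distal windows are coloured, some of them marked with their chromosome number. The distal windows spread along the same cloud as the other 462, from chromosomes 17 and 18 at the lower left to 9, 7 and 11 at the upper right, with chromosome 14 low for its gene share.

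Within the distal windows the density did not change evenly with distance. The last 1 Mb held 555 B6 peaks, or 29.3 per Mb (26.9 to 31.8), and 619 KI peaks, or 32.7 per Mb (30.1 to 35.4), although only 38.7% of its bases were in genes. The step from 4 to 5 Mb was the lowest of the 5, with 19.7 per Mb (17.8 to 21.8) in B6 and 25.1 (22.9 to 27.5) in KI. Outside genes the density fell at most steps from the end inward. In B6 it was 15.2 peaks per Mb in the last 1 Mb, then 12, 9.92, 9.98 and 5.07. In KI it was 18.3, then 16.0, 14.2, 14.6 and 11. Values as high as that of the last 1 Mb were rare farther in, out to 30 Mb, but they occurred: the B6 step from 17 to 18 Mb had 16.5 peaks per Mb outside genes, and the KI steps from 8 to 9 Mb and from 13 to 14 Mb had 21.9 and 18.5. The share of peaks in genes was 68.6% for B6 and 66.2% for KI in the last 1 Mb, and 85.7% and 75.8% between 4 and 5 Mb.

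**Figure D3:**
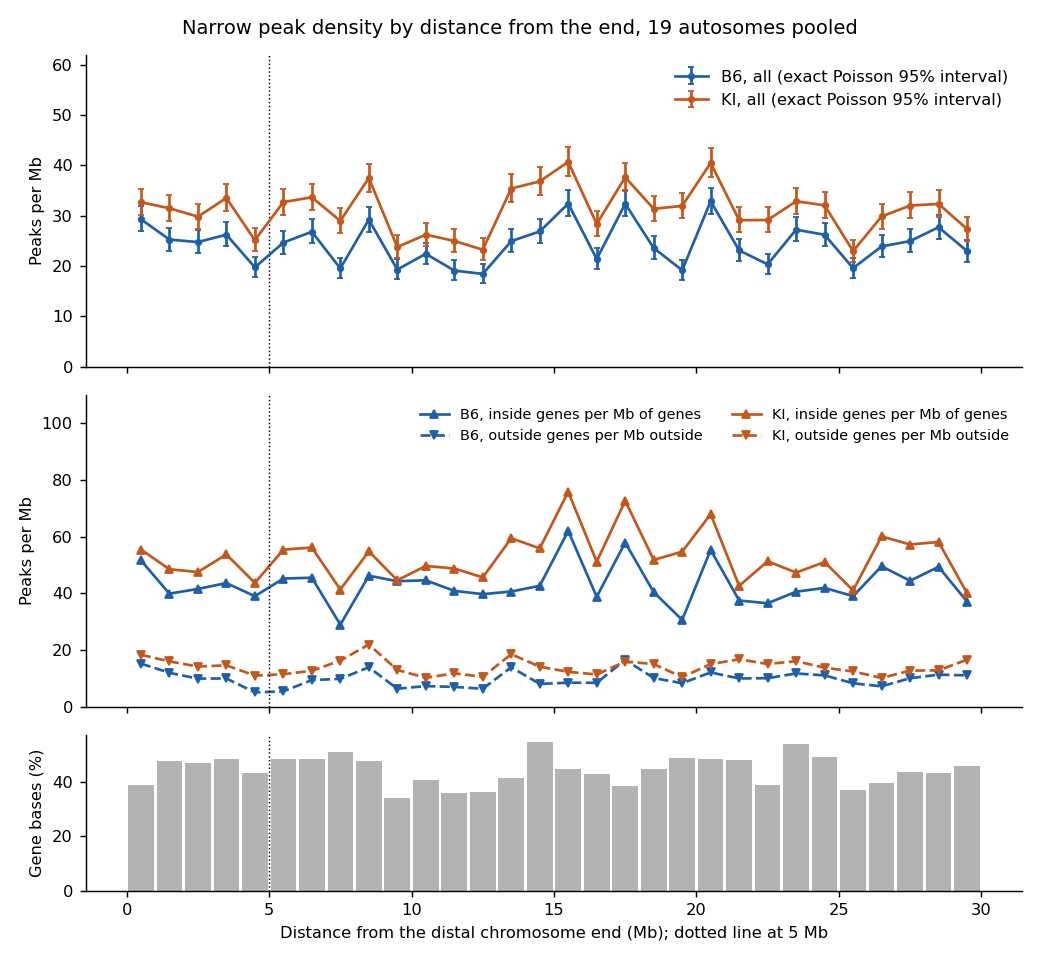
Narrow peak density in steps of 1 Mb from the distal end (horizontal axis), 19 autosomes pooled: all peaks per Mb with exact Poisson 95% intervals (top), peaks inside genes per Mb of gene and outside genes per Mb outside genes (middle), and the percentage of bases in genes (bottom). The dotted line marks 5 Mb; outside genes both strains start at 15.2 (B6) and 18.3 (KI) peaks per Mb and reach 5.07 and 11 at the last step before it, and steps of similar height recur farther in.

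On most chromosomes a peak lay close to the very end of the assembled sequence. No assembled autosome ended in undetermined bases. The most distal B6 peak was a median of 20.3 kb from the end, and on 15 of 19 chromosomes it was within 100 kb. In KI the median was 27.4 kb, and 17 were within 100 kb. The closest was on chromosome 17, the chromosome with the second sparsest distal window: a B6 peak of 222 bp (chr17:95271456-95271677) ended 0.974 kb from the end and a KI peak of 267 bp (chr17:95271046-95271312) ended 1.339 kb from it, inside broad regions that both ran to the last base. These peaks did not overlap each other. On chromosome 9 the last B6 peak was 1.393 kb from the end and its broad region also reached the last base. The farthest was on chromosome 12 in B6, at 610.8 kb, outside genes and 35.2 kb from Macc1, whereas the KI list had a peak 61.6 kb from that end in an intron of Tmem196. Of the 19 most distal peaks, 2 in B6 and 4 in KI overlapped a narrow peak of the other strain, and 9 and 8 met no region of the other strain, beside the 17.7 and 14.1 percent shared and the 43.3 and 32.1 percent without a region among all autosomal peaks.

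The vertebrate telomere repeat was looked for as 2 adjoining copies of TTAGGG, on either strand, in the 400 bp at the middle of each peak. It was found in 5 of 2369 distal B6 peaks, 0.211% (Wilson interval 0.0902 to 0.493), against 8 of 51867 in the rest, 0.0154%. In KI it was found in 2 of 2885, 0.0693% (0.0190 to 0.252), against 12 of 65304, 0.0184%. Of the 19 chromosome ends, 4 held these letters in their last 10 kb of assembled sequence.

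Sharing between the strains was nearly the same at the ends as elsewhere. A B6 peak was called shared when it overlapped a narrow peak of KI by at least 1 bp, and likewise for KI peaks. In B6, 439 of the 2369 distal peaks were shared, 18.5% (17 to 20.1), against 17.7 percent of all autosomal B6 peaks and 17.6% of those in the rest. The difference from the rest was 0.882 percentage points (Newcombe interval -0.667 to 2.53). In KI, 440 of 2885 were shared, 15.3% (14.0 to 16.6), against 14.1 percent of all autosomal KI peaks and 14.1% of the rest, a difference of 1.2 points (-0.0953 to 2.58). The distal share was higher than the rest on 11 chromosomes and lower on 8 in B6, and on 10 and 9 in KI.

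Between chromosome ends the sharing varied with the density. The ends of chromosomes 17 and 18 shared least: 1 of 36 B6 peaks (2.78%) and 1 of 45 KI peaks (2.22%) on chromosome 17, and 1 of 29 and 1 of 38 on chromosome 18. Chromosome 13 shared 6 of 58 and 6 of 71, and chromosome 12 shared 9 of 89 and 9 of 88. Chromosome 14, whose end was denser than its rest in both strains, also shared few, 14 of 132 and 14 of 133. The highest shares were 25.4% for B6 on chromosome 4, with 36 of 142 peaks, and 19% for KI on chromosome 15, with 40 of 210. Across the 19 ends the Spearman coefficient of the shared percentage with the density was 0.628 in B6 and 0.684 in KI, a description in which a denser window also gives more chances to overlap. In the rest of the chromosomes B6 shared percentages lay between 15.8% and 20.8% and KI ones between 12.4% and 16.0%, and the chromosome with the highest value in each strain was chromosome 17, whose end had the lowest.

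Peaks that met nothing in the other strain, narrow or broad, differed from the rest in opposite directions in the 2 lists, a contrast that could not be tested with 1 list each. In B6, 963 distal peaks (40.7%) met no KI region, against 43.3 percent of all autosomal B6 peaks, and the distal windows were 2.80 points below the rest (interval -4.81 to -0.765). In KI, 967 distal peaks (33.5%) met no B6 region, against 32.1 percent of all, and the distal windows were 1.48 points above the rest (-0.261 to 3.26). The KI peaks split by gene. Inside genes, 505 of 2127 distal KI peaks (23.7%) met no B6 region against 19% in the rest, 4.74 points more (2.94 to 6.63), and the distal share was the higher on 15 of 19 chromosomes. Outside genes, 462 of 758 (60.9%) met none against 68.6% in the rest, a difference of -7.64 points (-11.2 to -4.16), lower on 13 of 19 chromosomes. Those KI peaks outside genes met a B6 broad region alone more often, 28.6% against 22.2%. In B6 the corresponding shares were 34.7% against 37.2% inside genes and 61.4% against 64.1% outside.

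**Figure D4:**
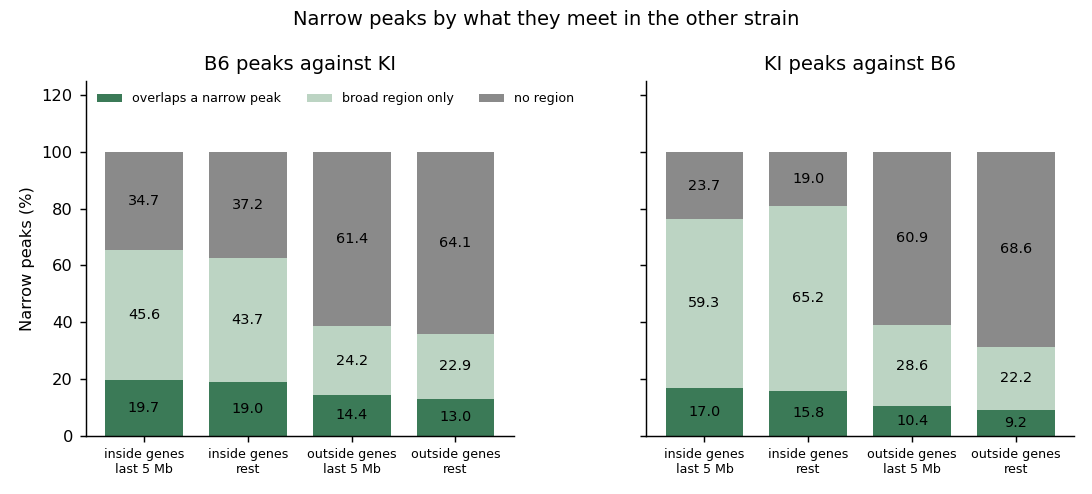
Percentage of narrow peaks (vertical axis) that overlapped a narrow peak of the other strain, met only a broad region of it, or met no region, for peaks inside and outside protein-coding genes in the last 5 Mb and in the rest, B6 on the left and KI on the right. The overlap with narrow peaks is nearly level between the paired bars, and the KI bars differ most in the share meeting no region, 23.7% against 19% inside genes and 60.9% against 68.6% outside.

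The KI list was longer than the B6 list by a factor of 1.22 in the distal windows and 1.26 in the rest. The KI libraries also had more aligned reads, and the part of depth in this factor was not tested. Between ends this factor ran from 0.989 on chromosome 12, with 89 B6 and 88 KI peaks, to 1.68 on chromosome 5, with 105 and 176. In the rest, which is far longer and holds many more peaks, it ran from 1.19 (chromosome 7) to 1.36 (chromosome 15). Other 5 Mb windows varied widely too. A window on chromosome 12 held 127 B6 and 74 KI peaks, and a window on chromosome 2 held 56 and 160. On 14 of 19 chromosomes the factor was lower at the end than in the rest.

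Sequence words that separate the strains elsewhere on the autosomes were carried over to the distal windows. For each strain, 10 words of 10 bases were taken that favoured its peaks meeting no region of the other strain, using only peaks outside the last 5 Mb, with words counted on both strands and simple repeats left out. The B6 word with the strongest preference was AGAAGCTACT and the KI word GAATGTGACC. Several B6 words are shifted copies or variants of one another, and the KI words often stood together, since 29 distal KI peaks gave 115 matches over the words while 25 distal B6 peaks gave 32. In the distal windows, 25 of 963 B6 peaks meeting no KI region held a B6 word, 2.60% (1.76 to 3.8), and 12 of 967 such KI peaks did, 1.24% (0.711 to 2.16). In sequence 2000 bp to the side of the same peaks the shares were 0.312% and 0.724%. KI words were in 29 of the 967 KI peaks, 3.0% (2.10 to 4.27), and in 1 of the 963 B6 peaks, 0.104% (0.0183 to 0.586), against 0.517% and 0.623% to the side. In the rest, where the words were chosen, the shares were 2.76% of B6 peaks for B6 words and 2.93% of KI peaks for KI words, and the words of the other strain were in 0.493% of B6 peaks and 0.397% of KI peaks. The distal share of B6 words in KI peaks, 1.24%, was above the 0.397% (0.320 to 0.491) of the rest, the peaks on which the words had been chosen. Among shared distal peaks the words were in at most 3 of 440. A match is a run of letters and not a measured binding site.

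Most distal peaks lay in genes, as elsewhere. In B6, 1840 of 2369 distal peaks overlapped a protein-coding gene, 77.7% (75.9 to 79.3), against 76.9 percent of all autosomal B6 peaks, and the difference from the rest was 0.835 points (-0.924 to 2.51). In KI it was 2127 of 2885, 73.7% (72.1 to 75.3), against 73.7 percent of all, with a difference of 0.0201 points (-1.65 to 1.63). With the last 2 Mb as the window the gene share instead lay below the rest, with differences of -4.69 points (-7.52 to -2.02) in B6 and -3.68 points (-6.34 to -1.15) in KI. Within genes, exons took a larger part at the ends. An exon was overlapped by 459 distal B6 peaks, 19.4% against 15.2% in the rest, 4.18 points more (2.61 to 5.85), and by 528 KI peaks, 18.3% against 13.8%, 4.51 points more (3.12 to 5.99). Exons also filled more of the distal windows, 4.21% of bases against 3.04%. The distal exon share was the higher on 12 of 19 chromosomes in each strain. By chromosome end, the gene share ran from 36.1% in B6 and 26.7% in KI on chromosome 17 to 90.9% and 92.5% on chromosome 14.

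The peaks themselves were much alike. Their median width was 316 bp at the ends and 312 bp in the rest in B6, and 320 and 318 bp in KI. The median gap between neighbouring peaks was 10.9 and 9.92 kb in B6 and 11.1 and 9.07 kb in KI. Base composition differed with the windows: 43.8% of distal bases were G or C against 41.9% in the rest, and the median peak had 44.1% against 42.2% in B6 and 45.2% against 43.1% in KI. The widest B6 peak of the windows covered 3448 bp in Sipa1l2 on chromosome 8, and the widest KI peak 3044 bp just beside Rnf213 on chromosome 11. Broad regions covered 19.7% of the distal windows and 17.7% of the rest in B6, and 19.4% and 16.9% in KI. Per Mb of broad region there were 127.1 distal peaks and 127.7 in the rest in B6, and 157.2 and 168.0 in KI. The broadest distal regions were 124.5 kb over Pan3, a subunit of a deadenylase, in B6 and 102.5 kb over Pds5b, a cohesin-associated protein, in KI.

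The windows held 1146 protein-coding genes, 12.1 per Mb against 8.82 in the rest. A narrow peak overlapped 625 of them in B6 (54.5%) and 637 in KI (55.6%), against 52.5% and 55.0% of the other autosomal genes. A gene covered over at least 50% of its length by broad regions was found 521 times in B6 (45.5%) and 505 times in KI (44.1%), and 488 genes were in both counts; of the other autosomal genes 43.1% and 41.4% reached this coverage. No broad region touched 35.6% of the genes in B6 and 34.9% in KI, against 39.5% and 37.7% of the other autosomal genes.

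Genes with the most peaks were long ones. Shank2, a scaffold protein of synapses on chromosome 7, spans 422.6 kb (chr7:151187833-151610399, forward strand) and ends 914.2 kb from the chromosome end. It held 68 B6 and 64 KI peaks, of which 11 were shared and 19 and 18 met no region of the other strain. Ulk4, a member of the family of autophagy-related kinases on chromosome 9, held 37 and 44. Fry, a large protein of the mitotic spindle on chromosome 5, held 30 and 41. On chromosome 14, Dock9, an activator of CDC42, held 31 and 37, and Pcca, the alpha subunit of propionyl-CoA carboxylase, 30 and 29. Grk5, a kinase of G protein-coupled receptors whose end is 174.0 kb from the end of chromosome 19, held 21 and 33. The other 6 of the 12 genes with the most peaks were Tbcd (20 and 29), Rps6kc1 (23 and 23), Trak1 (21 and 25), Ano1 (23 and 22), Atrnl1 (21 and 21) and Camta1 (12 and 27). Together the 12 genes had 103 of 337 B6 peaks (30.6%) and 92 of 395 KI peaks (23.3%) meeting no region of the other strain. Among all autosomal peaks the shares were higher, 43.3 and 32.1 percent. Over these 12 genes 64 of 337 B6 peaks (19%) and 64 of 395 KI peaks (16.2%) were shared, near the 17.7 and 14.1 percent of all autosomal peaks.

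The 6 genes with the largest excess of B6 peaks were chosen for that difference, so their counts are a description. Parp8, an ADP-ribosyltransferase on chromosome 13 (chr13:117643631-117814323, reverse strand), held 24 B6 and 13 KI peaks. Hlcs, the enzyme that attaches biotin to carboxylases, held 26 and 13, and Erg, a transcription factor of the ETS family, 14 and 2, both on chromosome 16. Stk24, a serine/threonine kinase (14 and 4), and Mbnl2, a splicing regulator (11 and 3), are on chromosome 14, and Rapgef5, an exchange factor for RAP proteins (19 and 10), on chromosome 12. Of their 108 B6 peaks 79 (73.1%) met no KI region, against 43.3 percent of all autosomal B6 peaks, a share that the choice of genes itself favours. Their coverage by broad regions was lower in KI, for example 57.5% and 22% in Stk24 and 13.6% and 1.76% in Erg. The Sertoli cell markers given above were likewise covered more in B6, in 5 of 6 genes; their part in these differences was not tested.

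The 6 genes with the largest excess of KI peaks were chosen in the same way, and 25 of their 152 KI peaks (16.4%) met no B6 region, against 32.1 percent of all. Ccdc91, a coiled-coil protein of the trans-Golgi network on chromosome 6 (chr6:147424393-147581134, forward strand; 7 B6 and 20 KI peaks), Tmtc4, a mannosyltransferase of the endoplasmic reticulum (2 and 15), and Ubac2, a protein of the same compartment with a ubiquitin-associated domain (5 and 16), both on chromosome 14, were covered to at least 89.7% in both strains. In each of these genes at most 1 KI peak met no B6 region. B6 broad regions covered at least 92.7% of each, which largely fixed that outcome. Camta1, Fry and Grk5 also had the largest excesses, and there 13 of 27, 9 of 41 and 2 of 33 KI peaks met no B6 region. Their B6 coverage was 17.7%, 35.0% and 87.3%. Over all 488 distal genes covered to at least 50% in both strains there were 925 B6 and 1249 KI peaks, a factor of 1.35. Over the other 658 genes there were 968 and 925, a factor of 0.956. The same split held in the rest, with factors of 1.48 and 0.924.

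**Figure D5:**
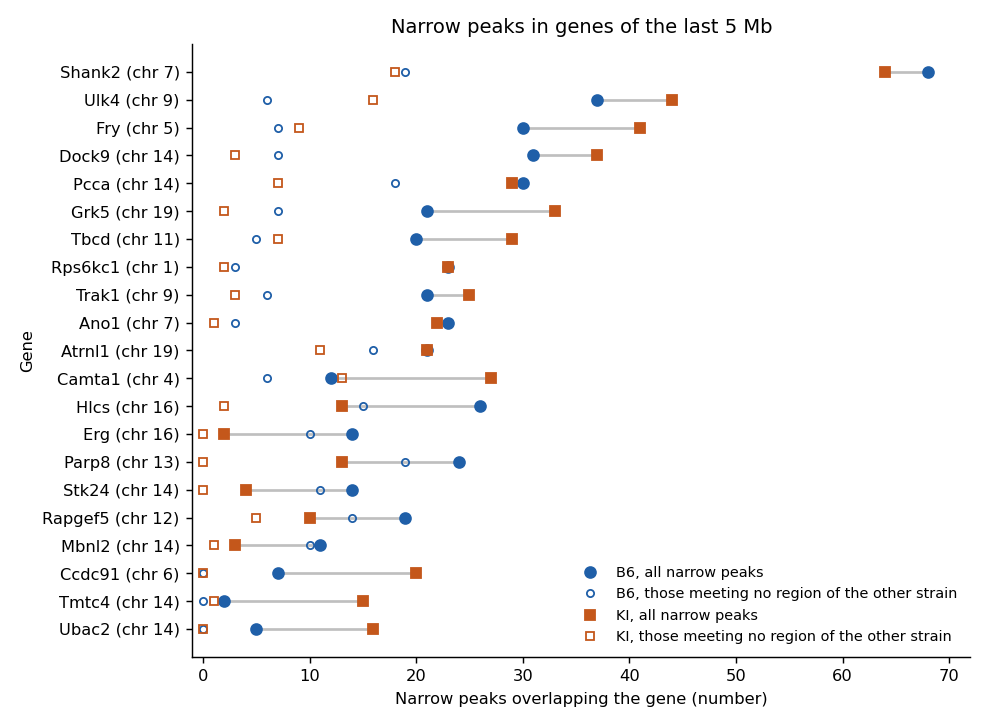
Number of narrow peaks (horizontal axis) overlapping each of the 21 genes of the windows with the most peaks or the largest excess in a strain, B6 as circles and KI as squares; open symbols count the peaks that met no region of the other strain. In Erg, Parp8, Stk24, Rapgef5, Mbnl2 and Atrnl1 the open B6 symbols lie close to the filled ones, in Hlcs they lie at 15 of 26, and in Ccdc91, Tmtc4 and Ubac2 the open symbols lie at 0 or 1.

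A few genes were covered over at least 50% of their length in a strain and not at all in the other. In B6 these were 6, among them Atf3, a stress-induced transcription factor on chromosome 1 (56.2% and 3 peaks), Ccr1, a chemokine receptor 192.6 kb from the end of chromosome 9 (53.7% and 2 peaks), and Myl6b, a myosin light chain on chromosome 10 (55.2% and 1 peak). In KI these were 3: Cend1 on chromosome 7 (54.4%) and, on chromosome 10, Arhgef25 (58.7%) and Slc39a5, a zinc transporter (52.8%). Beside these 6 and 3 of 1146 genes, the 20272 other autosomal genes included 90 covered in this way in B6 alone and 114 in KI alone.

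Genes of the germ line that happen to lie in the windows were covered in both strains. The meiotic genes Brca2 (99.4% of the gene, both strains), a protein of homologous recombination, and Sycp2 (99.4%) and Syce1 (92.9%), components of the synaptonemal complex, had 1 narrow peak each per strain. Of the germ cell and piRNA list, Tdrd1, a tudor protein of the piRNA pathway, had 98.2% of its length in broad regions of B6 and 91.3% in those of KI, the transcription factor Tcfl5 to 97.6% and Gtsf1, a piRNA pathway factor, to 75.4% in both. Mll2, an H3K4 methyltransferase, was covered to 89.8% and Rtel1, a helicase that maintains telomeres, to 99.8%. All 4 housekeeping genes of the windows, Actg1, Atp5b, Psma7 and Psmd13, were covered to at least 73.0% in each strain. The counts past 50% were therefore 3 of 3, 3 of 3, 1 of 1, 1 of 1 and 4 of 4, beside 45.5% and 44.1% of all genes of the windows.

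The imprinted cluster of distal chromosome 7 lay wholly inside the window, and its genes ranged from uncovered to almost fully covered. Of its 16 listed genes, 6 in B6 and 5 in KI were covered to at least 50%, beside 45.5% and 44.1% of all genes of the windows, and Ascl2, Cdkn1c, Phlda2 and Tspan32 were at 0% in both. Kcnq1, a potassium channel gene spanning 319.8 kb, held 11 B6 and 12 KI peaks over a coverage of 21.0% and 24.2%. Nap1l4, a histone chaperone of the NAP family at the border of the cluster, was covered to 97.2% in both. H19, a noncoding RNA (chr7:149761434-149764048, reverse strand), was covered to 79.0% with 1 peak in B6 and to 0% in KI, and Igf2, a growth factor, to 21.8% with 1 peak and to 0%. In the other direction Slc22a18 was at 0% in B6 and at 20.5% with 2 peaks in KI. The H19 and Igf2 values were higher in the same strain as the Sertoli cell markers, and the part of such cells was not tested.

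Gene families were read against the 54.5% (B6) and 55.6% (KI) of all genes of the windows that had a narrow peak. The 72 olfactory receptor genes (Olfr) of the windows of chromosomes 7 and 10 had no narrow peak in either strain, nor had 5 vomeronasal receptor genes (Vmn), 16 immunoglobulin heavy chain genes (Igh) on chromosome 12 and 4 keratin-associated protein genes (Krtap) on chromosome 7. Of 12 zinc finger genes (Zfp), 11 had a narrow peak in each strain. The genes nearest the chromosome ends were mixed. Bicd1, an adaptor of dynein 5.186 kb from the end of chromosome 6, held 21 B6 and 14 KI peaks. Of these, 13 and 2 met no region of the other strain, beside 43.3 and 32.1 percent of all autosomal peaks. Broad regions covered 56.0% of Bicd1 in B6 and 26.9% in KI. Wls, which carries WNT proteins to the cell surface, ended 0.986 kb from the end of chromosome 3 and held 4 and 1, and Gm7120 and Tmem196, which end 0.035 and 0.351 kb from the ends of chromosomes 13 and 12, held none in B6 and 0 and 1 in KI.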

How the data were processed

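The authors aligned reads to mm9 (the submitters' processing notes name BWA 1.2.3), kept uniquely mapped reads, merged the replicates of a strain and called H3K36me3 regions with ZINBA against the input of that strain. The deposited files give chromosome, start and end for each refined (narrow) and unrefined (broad) region, and no counts, signal or scores. Positions were used as they stand, 1-based. Genes and exons were those of GENCODE vM1 on NCBIM37, whose chromosome lengths equal mm9, and densities were taken over bases other than N. A narrow peak was shared when it overlapped a narrow peak of the other strain by at least 1 bp. A gene belonged to a window when at least 50% of it lay inside. Intervals at 95% were exact Poisson for densities, Wilson for shares and Newcombe for differences of shares. For density ratios they were derived from the Wilson interval of the distal share of the peaks. With 1 pooled list per strain no test between animals could be made, and no p-value was computed.

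Words of 10 bases were counted in 400 bp at the peak middle, ranked by the lower bound of the log odds between strains, and had to hold at least 6 distinct triplets. The printed sequences were chosen among distal peaks of the autosomes other than chromosome 18. Named genes were the 12 with most peaks, the 6 with the largest excess in each strain, members of the gene lists and the genes nearest the ends. The genes covered in 1 strain only, Macc1, Pan3 and Pds5b were named after their values were seen. The members and lists were chosen with earlier results of these data known. Alternatives covered the window size, the comparison region, merging, the overlap rule and the gene rule. Python 3.11.15, numpy 2.4.6, pandas 2.3.3, scipy 1.17.1, matplotlib 3.10.9 and bedtools 2.31.1 were used, and the scripts were tested on simulated data. The input libraries served only in the authors' calling and were not analysed here.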

Additional observations from a re-analysis of the deposited data

Results flagged for a closer look

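For 8 quantities the distal windows lay on opposite sides of the rest in the 2 strains. With 1 pooled list per strain this difference was not tested. The share of peaks meeting no region of the other strain differed from the rest by -2.80 points (-4.81 to -0.765) in B6 and by 1.48 points (-0.261 to 3.26) in KI. Inside genes the same share differed by -2.56 points (-4.75 to -0.307) in B6 and by 4.74 (2.94 to 6.63) in KI. The share meeting a broad region but no narrow peak of the other strain differed by 1.92 points (-0.0879 to 3.96) in B6. In KI that difference was -2.67 points (-4.54 to -0.813). Inside genes it was 1.88 (-0.440 to 4.21) in B6 and -5.94 (-8.08 to -3.82) in KI. The remaining 4 were density ratios of single chromosomes. They were 1.03 in B6 and 0.978 in KI on chromosome 2, 0.828 and 1.15 on chromosome 5, 1.09 and 0.998 on chromosome 10, and 1.05 and 0.933 on chromosome 19. On each of these 4 chromosomes the 95% interval of the ratio included 1 in both strains.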

How the results depend on the processing

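Of 74 recomputed values, 56 stayed within the interval of the value reported and the others moved out of it; 12 lay on the other side of no difference. Of these 12, 2 reversed a result whose interval excluded no difference, the density ratios counted inside genes per Mb of gene, 0.979 in B6 and 0.938 in KI. The B6 value had an interval of 0.934 to 1.03, which itself included no difference. The other 10 were share differences whose reported interval included 0: 5 fell outside that interval and are the negative values that follow for the last 2 Mb, the median and the broad regions, and 5 stayed within it, all of them gene shares. Outside genes the ratios moved up, to 1.19 in each strain. With the last 2 Mb as the window the ratios were 1.21 in B6 and 1.13 in KI, the shared share in B6 differed by -0.696 points, and the gene share differed by -4.69 points in B6 and -3.68 in KI. As a median over the 19 chromosomes the density ratio was 1.14 in KI, and the gene share differed by -1.25 points in B6 and 1.98 in KI. Counting broad regions of the other strain as shared gave 2.80 points in B6 and -1.48 in KI. Leaving out 1 chromosome at a time gave density ratios from 1.07 (without chromosome 9) to 1.16 (without chromosome 17) in B6 and from 1.04 to 1.13 in KI, sharing differences from 0.467 to 1.27 and from 0.784 to 1.5 points, and gene share differences from -0.0578 to 1.63 and from -0.935 to 0.911 points. Without chromosomes 13, 17 and 18, an alternative chosen after seeing the data, the density ratios were 1.26 (1.21 to 1.31) in B6 and 1.22 (1.17 to 1.26) in KI. The remaining gene share differences below 0 were in KI, at -0.124 with the rest taken without its first 10 Mb, -0.0491 by midpoint and -0.0598 with 50% of the peak inside the gene. The cause of these shifts was not tested. Some alternatives count fewer chromosomes or peaks, and others change the window or apply another rule to the same peaks. No paired analysis was possible because each strain has 1 pooled list, and for the same reason no replicate could be left out. Depth, peak height and false discovery rate are not in the lists, so weakly enriched peaks at the ends could not be told from strong ones.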
